A study of Mus musculus with 32 samples.

Results

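The genes described here are 38 members of the machinery that copies DNA and repairs its mismatches, out of 22337 genes quantified in each mouse library. They were taken by symbol from a fixed list, every one was found once, and they were grouped by role into the Mcm2-7 helicase (6 genes), polymerase alpha-primase (4), polymerase delta (4), polymerase epsilon (4), the sliding clamp and its loader (6), replication protein A (3), Okazaki fragment processing (3), ribonuclease H2 (3) and mismatch repair (5). Mice of 3 kinds, wild-type (WT), untreated 5xFAD and light-treated 5xFAD, were compared in the hippocampus (HPC, 4 libraries in each group), the meninges (4 WT, 3 untreated 5xFAD and 3 light-treated 5xFAD libraries) and sorted meningeal lymphatic endothelial cells (mLECs, 4, 3 and 3 libraries). All animals were males of 6 months. 5xFAD mice carry mutated human amyloid precursor protein and presenilin transgenes driven by Thy1 regulatory sequence, which is active mainly in neurons, and they deposit amyloid in the brain. The light was near-infrared and was given through the skull, and untreated animals were shaved and anesthetized in the same way and kept under indoor lighting. mLECs were sorted as DAPI- CD45- CD31+ PDPN+ cells, and each library was made from 1 mouse with Smart-seq2, a full-length cDNA method for small RNA inputs.

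Replication starts when the Mcm2-7 ring, loaded onto origins, is activated as the helicase that unwinds the double helix. Polymerase alpha-primase lays down primers, the clamp loader (replication factor C, Rfc) places the PCNA ring on them, and polymerases epsilon and delta extend the leading and lagging strands while replication protein A coats the single strands. Fen1, Dna2 and Lig1 process and join the lagging-strand fragments, ribonuclease H2 removes ribonucleotides built into DNA, and the MutS and MutL proteins with the exonuclease Exo1 correct mispaired bases. Transcription of many of these genes is driven by E2F factors in dividing cells, and most cells of the adult HPC do not divide, whereas several of the same proteins also serve DNA repair in resting cells.

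The members lie on 16 chromosomes, with 7 of them on chromosome 5 and 4 on chromosome 19 (GENCODE vM21 annotation of GRCm38). RefSeq promoter windows (250 bases before to 50 bases after the start of transcription, GRCm38.p6) were on hand for 32 of the 38 members. Windows of Mcm4, Prim2, Pole, Rfc2, Rnaseh2b and Exo1 were not used here. The E2F words TTTCCCGC, TTTCGCGC, TTTGCCGC and TTTGGCGC were searched on both strands, and at least 1 of them lay in a window of 13 of the 32 members (40.6%), against 704 of 27025 gene symbols (2.6%). Dropping the first T, a shorter core was found in 21 of the 32 members (65.6%) and in 2936 of all symbols (10.9%). The words lay in 4 of 5 Mcm2-7 windows (Mcm3, Mcm5, Mcm6 and Mcm7), 2 of 4 for polymerase delta (Pold1 and Pold3), 2 of 3 for polymerase epsilon (Pole2 and Pole4), 2 of 4 for mismatch repair (Msh3 and Msh6), and in Rfc3, Pola1 and Lig1. None was found in the 3 windows of replication protein A or the 2 of ribonuclease H2. Such a match is a description of the letters and not a measured binding site. The windows of the 4 members on which the comparisons below turn are printed 5′ to 3′ on the gene's own strand, with a matched word, or for Rpa3 the shorter core, in capitals. Mcm3 (minus strand, chr1:20820263-20820562) held 2 words, Mcm6 (minus strand, chr1:128359656-128359955) held 3, of which 2 overlap, Pold4 (plus strand, chr19:4231643-4231942) held none, and Rpa3 (minus strand, chr6:8259092-8259391) held only the core.
Mcm3: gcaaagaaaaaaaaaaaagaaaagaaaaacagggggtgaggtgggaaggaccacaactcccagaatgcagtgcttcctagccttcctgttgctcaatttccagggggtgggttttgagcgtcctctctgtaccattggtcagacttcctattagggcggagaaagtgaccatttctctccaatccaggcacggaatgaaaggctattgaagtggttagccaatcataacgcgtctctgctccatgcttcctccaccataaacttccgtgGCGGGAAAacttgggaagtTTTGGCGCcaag
Mcm6: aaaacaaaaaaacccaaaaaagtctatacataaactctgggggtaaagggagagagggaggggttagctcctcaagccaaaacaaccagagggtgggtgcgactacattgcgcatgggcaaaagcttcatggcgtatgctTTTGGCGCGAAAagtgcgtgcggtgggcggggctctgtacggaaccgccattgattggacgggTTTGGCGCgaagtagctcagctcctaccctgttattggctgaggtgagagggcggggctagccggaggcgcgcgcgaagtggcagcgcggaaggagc
Pold4: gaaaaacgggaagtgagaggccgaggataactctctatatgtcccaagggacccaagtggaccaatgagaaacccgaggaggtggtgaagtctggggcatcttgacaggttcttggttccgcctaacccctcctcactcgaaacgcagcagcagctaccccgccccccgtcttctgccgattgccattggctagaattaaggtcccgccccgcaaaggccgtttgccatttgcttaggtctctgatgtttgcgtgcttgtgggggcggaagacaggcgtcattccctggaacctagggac
Rpa3: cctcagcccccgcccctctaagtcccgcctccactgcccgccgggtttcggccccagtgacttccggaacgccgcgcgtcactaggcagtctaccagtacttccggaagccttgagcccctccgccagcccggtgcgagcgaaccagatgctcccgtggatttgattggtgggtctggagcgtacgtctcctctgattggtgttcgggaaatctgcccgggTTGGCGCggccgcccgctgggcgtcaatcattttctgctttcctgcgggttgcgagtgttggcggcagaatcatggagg

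Levels below are fragments per kilobase of transcript scaled to the size of the library (FPKM), as deposited, and genes were tested with edgeR's quasi-likelihood test on the estimated counts, with Benjamini-Hochberg adjustment over all genes tested in a fit. A gene was called changed at an adjusted p below 0.05 and a difference of at least 2-fold. Total estimated counts were 13952825 to 23856476 per HPC library, 6601143 to 14708202 in the meninges and 14231415 to 24207326 in mLECs. Between replicates, the typical variation of a gene beyond counting error (edgeR's common coefficient) was 0.198, 0.35 and 1.89 for these 3 sources, so that the mLEC libraries differed most among themselves. In 5xFAD HPC the summed FPKM of 5 microglial markers was 404 to 563, against 181 to 205 in WT. In the meninges the library of light-treated replicate 1 stood apart, with a summed neutrophil marker level of 7530 where the other light-treated libraries had 657 and 716.

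In unsorted tissue a smaller number of cells of a type and less RNA per cell cannot be told apart. The members were expressed at low to middle levels in tissue, and the median over the 38 members of the mean FPKM was 5.23 in the HPC (from 0.186 for Exo1 to 32.6 for Pole4) and 6.02 in the meninges (from 0.454 for Exo1 to 42.4 for Pcna). WT meninges and WT HPC differed in 6 of the 34 members tested, 4 of them higher in the meninges, where 28.3% of all 14144 genes tested were called higher, and 2 lower, where 21.7% were. Lig1, the ligase that seals lagging-strand fragments, had 14.2, 11.15, 11.56 and 16.45 FPKM in WT meninges and 1.81, 2.18, 2.84 and 1.88 in WT HPC, a log2 difference of 2.67 (SE 0.193, edgeR adjusted p = 8.93e-07). Pola1, the catalytic subunit of polymerase alpha, had 2.25, 2.99, 3.44 and 2.79 FPKM in the meninges and 1.16, 1.54, 0.86 and 0.95 in the HPC (log2 difference 1.29, SE 0.228, edgeR adjusted p = 0.000463). For both genes every meningeal library lay above every hippocampal one, as for 7 of the 34 members and 35.6% of all genes.

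Mcm3, a subunit of the helicase ring, and Pold4, the smallest subunit of polymerase delta, were the other members called higher in WT meninges. Mcm3 had 3.4, 3.34, 2.5 and 2.11 FPKM there and 1.54, 1.36, 0.88 and 1.26 in the HPC (log2 difference 1.13, SE 0.268, edgeR adjusted p = 0.00317). Pold4 had 30.74, 45.55, 29.32 and 36.8 FPKM against 16.91, 14.25, 15.36 and 16.48 (log2 difference 1.01, SE 0.176, edgeR adjusted p = 0.000421). The groups did not overlap for either gene, as for 35.6% of all genes. Fen1, the flap endonuclease of lagging-strand processing, went the other way, with 5.34, 4.8, 3.59 and 2.83 FPKM in the meninges and 8.23, 7.48, 8.52 and 9.52 in the HPC (log2 difference -1.06, SE 0.231, edgeR adjusted p = 0.00194). Pms2, a MutL subunit, was also lower in the meninges, at 6.95, 8.57, 7.91 and 7.12 counts scaled to library size (CPM) against 18.2, 17.1, 17.5 and 19.3 (log2 difference -1.33, SE 0.171, edgeR adjusted p = 4.86e-05). All 4 mismatch repair members tested had lower fitted levels in the meninges than in the HPC, and 3 of them reached an adjusted p below 0.05 when no fold threshold was set. By that rule 10 of the 34 members were higher (37.8% of all genes) and 6 were lower (33.2%). Among 16 mitosis genes, 8 were tested in this comparison and 7 were called higher in the meninges (28.3% of all genes). Of 20 origin licensing and firing genes 15 were tested, 2 being called higher and 3 lower (21.7% of all genes). A gene could be high enough for testing through either tissue alone.

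In the HPC, the comparison of untreated 5xFAD with WT mice asked which members changed with the transgenes. Of the 34 members tested (Pole, Pole2, Dna2 and Exo1 were too low), none was called changed by edgeR, where 4.23% of all 12981 genes were called higher and 0.0539% lower. DESeq2 and limma called 0 members as well. At an adjusted p below 0.05 without the fold threshold, Mcm3 and Pold4 were higher in 5xFAD, 2 of 34 members against 6.48% of all genes, and 0 were lower, against 2.06%. At an unadjusted p below 0.05, 4 members were higher (13.7% of all genes) and 1 was lower (10.2%). Fitted differences were above 0 for 23 of the 34 members, with a median log2 difference of 0.08, where 52.1% of all genes lay above 0 with a median of 0.02.

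Mcm3 (ENSMUSG00000041859, chr1:20802968-20820312) had 1.54, 1.36, 0.88 and 1.26 FPKM in WT HPC (1.26 ± 0.279, SD, n = 4), 3.3, 2.29, 1.72 and 2.09 in untreated 5xFAD (2.35 ± 0.676, n = 4) and 1.95, 2.49, 2.47 and 2.62 in light-treated 5xFAD (2.38 ± 0.296, n = 4). All 8 libraries of 5xFAD mice, treated or not, lay above all 4 WT libraries, as 8.75% of all genes did for untreated and 7.33% for light-treated 5xFAD. Mcm3 was 0.92 above WT on the log2 scale in untreated 5xFAD, short of 2-fold (SE 0.231, edgeR adjusted p = 0.0254) and was 0.93 above WT in light-treated 5xFAD (SE 0.232, edgeR adjusted p = 0.0424). This was the lone member past an adjusted p of 0.05 in the latter comparison, where 3.05% of all genes were higher by that rule. It was also the lone member higher there at an unadjusted p below 0.05 (10.4% of all genes), and 0 of 34 members were called with the fold threshold included (2.26% of all genes called higher, 0.1% lower; 0 members called by DESeq2). With single libraries left out, the adjusted p of Mcm3 exceeded 0.05 without 5xFAD replicate 1 (0.0761) and without WT replicates 2 (0.0541), 3 (0.0765) or 4 (0.069) in the first comparison, and without any of 7 of the 8 libraries in the second (0.0631 to 0.128).

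Pold4 (ENSMUSG00000024854, chr19:4231899-4233634) had 16.91, 14.25, 15.36 and 16.48 FPKM in WT (15.8 ± 1.19, SD, n = 4), 26.93, 21.94, 21.81 and 23.25 in untreated 5xFAD (23.5 ± 2.39, n = 4) and 15.02, 16.07, 18.34 and 19.67 in light-treated 5xFAD (17.3 ± 2.11, n = 4). Untreated 5xFAD libraries lay above all libraries of both other groups, and the light-treated and WT ranges overlapped. Pold4 was 0.57 above WT on the log2 scale in untreated 5xFAD (SE 0.132, edgeR adjusted p = 0.0167), short of the 2-fold threshold. The adjusted p exceeded 0.05 without 5xFAD replicate 1 (adjusted p = 0.0515, edgeR) or WT replicate 2 (adjusted p = 0.0524, edgeR). Light-treated minus untreated 5xFAD was -0.49 for Pold4 (SE 0.132, unadjusted p = 0.0023 and adjusted p = 0.0993, edgeR), which missed the threshold, while DESeq2 gave an adjusted p of 0.022. The untreated 5xFAD libraries enter both differences. All 4 subunits of polymerase delta had fitted levels above WT in untreated 5xFAD (median log2 difference 0.31) and all 4 were below untreated 5xFAD after light (median -0.15).

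Mcm6 (ENSMUSG00000026355, chr1:128331590-128359664), another helicase subunit, had the largest fitted difference between light-treated and untreated 5xFAD HPC among the members. It had 7.8, 6.81, 4.48 and 7.14 FPKM in WT (6.56 ± 1.44, SD, n = 4), 3.65, 7.44, 1.28 and 3.94 in untreated 5xFAD (4.08 ± 2.54, n = 4) and 10.84, 11.16, 7.53 and 9.07 in light-treated 5xFAD (9.65 ± 1.69, n = 4). Every light-treated library lay above every untreated 5xFAD library, by little for replicate 3 of the treated group against replicate 2 of the untreated group. The log2 difference was 1.23 (SE 0.348, unadjusted p = 0.00356 and adjusted p = 0.115, edgeR), which did not pass the threshold. The summed level of 5 immature neuron markers separated the same groups, at 10.4 to 16.2 FPKM in WT, 10.2 to 14.4 in untreated and 14.6 to 17.9 in light-treated 5xFAD. Replicate 3 was the lowest library for this sum and for Mcm6 in the WT and the untreated group. In the light-treated group replicate 4 was lowest for the sum and replicate 3 for Mcm6. Of the 5 markers Neurod1 had the highest values, at 4.98 to 13.04 FPKM, and so weighed most in the sum. Neurod1 was higher still in the meninges, at 14.98 to 79.02 FPKM. None of the 5 was at 0 in all HPC libraries, Eomes was at 0 in 4 of them, and of the 3 that could be tested 1 lay above and 2 below 0 for light-treated against untreated 5xFAD. The part of these cells in the Mcm6 values was not tested. The Mcm6 difference passed in DESeq2 (adjusted p = 0.015) and in edgeR without untreated 5xFAD replicate 2 (log2 difference 1.69, adjusted p = 0.0192). The 5 other Mcm2-7 genes also had fitted levels above untreated 5xFAD after light, with a median log2 difference of 0.10 over the 6 genes.

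**Figure D1:**
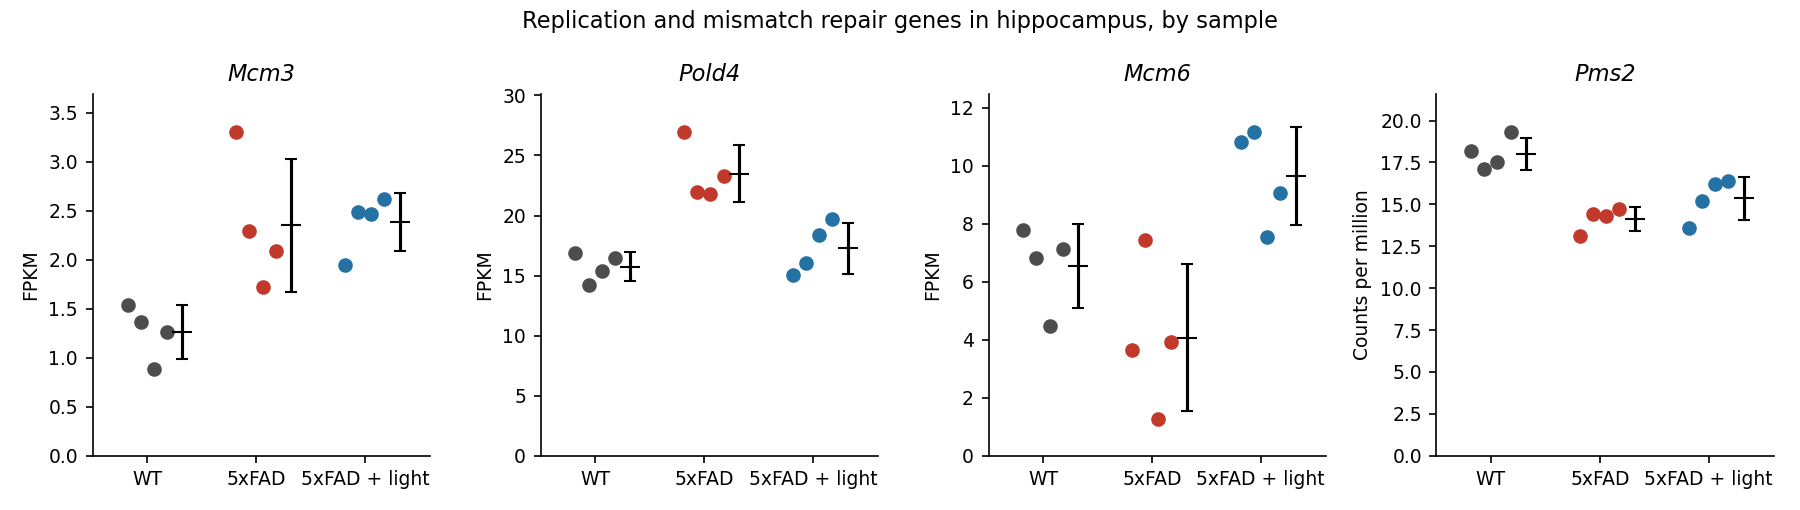
Levels of Mcm3, Pold4 and Mcm6 (FPKM) and of Pms2 (CPM) in each of the 12 HPC libraries, with points for mice and bars for the mean ± SD of 4. Mcm3 lay above WT in all 8 libraries of 5xFAD mice, and Pold4 was highest in untreated 5xFAD, at 21.81 to 26.93 FPKM.

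Between light-treated and untreated 5xFAD HPC, 0 of the 34 members were called by edgeR (0.116% of all genes called higher, 0.154% lower). DESeq2, which called more genes than edgeR over the transcriptome here, called Mcm6 alone of the members. At an unadjusted p below 0.05 in edgeR, 1 member was higher (8.54%) and 2 were lower (9.81%). The groups did not overlap for Mcm6, which was higher (3.66% of all genes), and Pold4, which was lower (3.98%). Fitted differences were above 0 for 18 of 34 members, where 47.5% of all genes were. The remaining member below an unadjusted p of 0.05 was Rnaseh2c, a subunit of ribonuclease H2, with 34.69, 30.07, 25.26 and 27.54 FPKM in untreated and 19.06, 14.41, 24.21 and 28.83 in light-treated 5xFAD (log2 difference -0.44, SE 0.195, edgeR adjusted p = 0.257). Its groups overlapped. In WT it had 22.43, 25.51, 27.89 and 26.79 FPKM.

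The catalytic complex of ribonuclease H2 contributed another member with an unadjusted p below 0.05 in untreated 5xFAD against WT. Rnaseh2b had 7.71, 5.22, 7.34 and 8.57 FPKM in WT, 9.73, 7.61, 12.01 and 12.78 in untreated 5xFAD and 7.67, 7.38, 9.86 and 7.56 in light-treated 5xFAD (5xFAD minus WT 0.42 on the log2 scale, SE 0.165, edgeR adjusted p = 0.142). Rpa3, the small subunit of replication protein A, had 6.22, 10.97, 7.77 and 7.01 FPKM in WT, 10.95, 11.35, 12.27 and 9.23 in untreated and 8.3, 7.6, 11.36 and 10.51 in light-treated 5xFAD (5xFAD minus WT 0.47, SE 0.213, edgeR adjusted p = 0.198). In both genes WT and 5xFAD overlapped. Pole4, a histone-fold subunit of polymerase epsilon, had 39.47, 33.32, 36.2 and 32.61 FPKM in WT, 33.98, 32.83, 30.25 and 35.07 in untreated 5xFAD and 29.13, 26.64, 31.89 and 30.32 in light-treated 5xFAD. All light-treated libraries lay below WT for Pole4 (7.52% of all genes did so), with a log2 difference of -0.26 (SE 0.099, edgeR adjusted p = 0.205).

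The 4 mismatch repair members tested all had fitted levels below WT in untreated 5xFAD HPC, with a median log2 difference of -0.27, and none passed the adjusted threshold. Pms2 (chr5:143909964-143933968) had 18.2, 17.1, 17.5 and 19.3 CPM in WT, 13.1, 14.4, 14.3 and 14.7 in untreated 5xFAD and 13.6, 15.2, 16.2 and 16.4 in light-treated 5xFAD. By counts, all 8 libraries of 5xFAD mice lay below WT (5xFAD minus WT -0.35, SE 0.108, edgeR adjusted p = 0.0662; DESeq2 adjusted p = 0.0216). On this scale 2 of 34 members lay below WT in untreated and 2 in light-treated 5xFAD. No share of all genes is at hand for counts. By FPKM, 5.79% of all genes lay below WT in this way in untreated and 7.52% in light-treated 5xFAD. Per kilobase the order was lost, with 6.58, 4.1, 8.69 and 5.13 FPKM in WT, 5.11, 3.45, 3.77 and 6.53 in untreated and 4.92, 4.66, 3.71 and 5.63 in light-treated 5xFAD, because the ratio of FPKM to CPM for Pms2 varied 2.18-fold over the 12 libraries, where the median member varied 1.06-fold. Msh6, which recognizes mispaired bases as part of a MutS complex, had 3.72, 4.32, 3.66 and 3.6 FPKM in WT, 3.31, 2.76, 3.03 and 3.46 in untreated 5xFAD and 3.51, 3.93, 3.42 and 2.78 in light-treated 5xFAD. Untreated 5xFAD did not overlap WT for Msh6 (5.79% of all genes were lower in this way), with a log2 difference of -0.26 (SE 0.126, edgeR adjusted p = 0.236). Msh3 and Mlh3 were -0.28 (SE 0.154) and -0.26 (SE 0.127) on the same scale. After light the same 4 genes had fitted levels above the shared untreated 5xFAD libraries, with a median of 0.15.

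Mcm2, a helicase subunit, Pcna and Lig1 had overlapping HPC groups. Mcm2 had 1.66, 1.86, 1.21 and 1.61 FPKM in WT, 1.7, 1.72, 1.34 and 2.04 in untreated and 1.77, 1.67, 1.87 and 2.12 in light-treated 5xFAD. Pcna, the sliding clamp, had 28.96, 32.79, 34.63 and 30.37 FPKM in WT, 29.99, 29.48, 43.1 and 34.16 in untreated and 30.55, 32.41, 31.33 and 32.68 in light-treated 5xFAD. Both sets of ranges overlapped, and the fitted 5xFAD minus WT differences were 0.09 (SE 0.192) and 0.12 (SE 0.119). Lig1 had 1.81, 2.18, 2.84 and 1.88 FPKM in WT, 1.88, 2.82, 4.83 and 1.61 in untreated and 1.86, 1.42, 1.82 and 2.55 in light-treated 5xFAD, with overlapping groups. Exo1, which degrades the mispaired strand, was near the bottom of the scale throughout, at 0.08, 0.22, 0.02 and 0.07 FPKM in WT, 0.15, 0.21, 0.65 and 0.03 in untreated and 0.21, 0.33, 0.07 and 0.19 in light-treated 5xFAD.

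Other lists of the cell cycle were read beside the members. Of 16 mitosis genes 5 were tested in the HPC, all 5 lay above WT in untreated 5xFAD, and 2 were called higher (4.23% of all genes). Cdk1, the kinase that starts mitosis, had 0.16, 0.11, 0.75 and 0.33 FPKM in WT, 1.8, 1.41, 2.03 and 1.6 in untreated and 1.01, 1.56, 2.5 and 1.06 in light-treated 5xFAD (5xFAD minus WT 2.46, SE 0.519, edgeR adjusted p = 0.00927). Cdc20, an activator of the anaphase-promoting complex, had 0.21, 0.21, 0.37 and 0.17 FPKM in WT, 1.46, 0.59, 0.7 and 1.48 in untreated and 1.33, 1.14, 0.89 and 0.81 in light-treated 5xFAD (5xFAD minus WT 2.11, SE 0.412, edgeR adjusted p = 0.0056). Both stayed under 3 FPKM and no 5xFAD library overlapped WT, as for 8.75% of all genes in untreated and 7.33% in light-treated 5xFAD. Mki67, a marker of cycling cells, was at 0.03 to 0.14 FPKM in WT, 0.12 to 0.17 in untreated and 0.06 to 0.32 in light-treated 5xFAD and was too low to test. Among 20 origin licensing and firing genes, 15 were tested and 1 passed the adjusted threshold in the same comparison. This was Orc3, a subunit of the origin recognition complex, with 16.14, 16.37, 16.18 and 14.27 FPKM in WT, 11.51, 11.24, 12.29 and 13.36 in untreated and 13.51, 17.1, 14.47 and 14.14 in light-treated 5xFAD (5xFAD minus WT -0.37, edgeR adjusted p = 0.0286).

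Microglial and leukocyte transcripts were higher in both 5xFAD groups than in WT. All 5 microglial markers reached an adjusted p below 0.05 in untreated 5xFAD against WT, with summed levels of 181 to 205 FPKM in WT, 404 to 563 in untreated and 333 to 502 in light-treated 5xFAD, and no marker was at 0 in all HPC libraries. The 4 leukocyte markers summed to 136 to 154, 235 to 347 and 228 to 308 FPKM. For neither list did the light-treated 5xFAD libraries overlap the WT range. The 6 neutrophil markers summed to 0.74 to 1.76 FPKM in WT, 3.66 to 9.37 in untreated and 0.25 to 3.52 in light-treated 5xFAD. Of these markers 2 were high enough to test, and 1 was called higher in untreated 5xFAD against WT. Choroid plexus markers summed to 35.8 to 2790 FPKM in WT, 204 to 3180 in untreated and 61.8 to 242 in light-treated 5xFAD. The part of these cells in the values of Mcm3, Pold4, Cdk1 and Cdc20 was not tested.

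**Figure D2:**
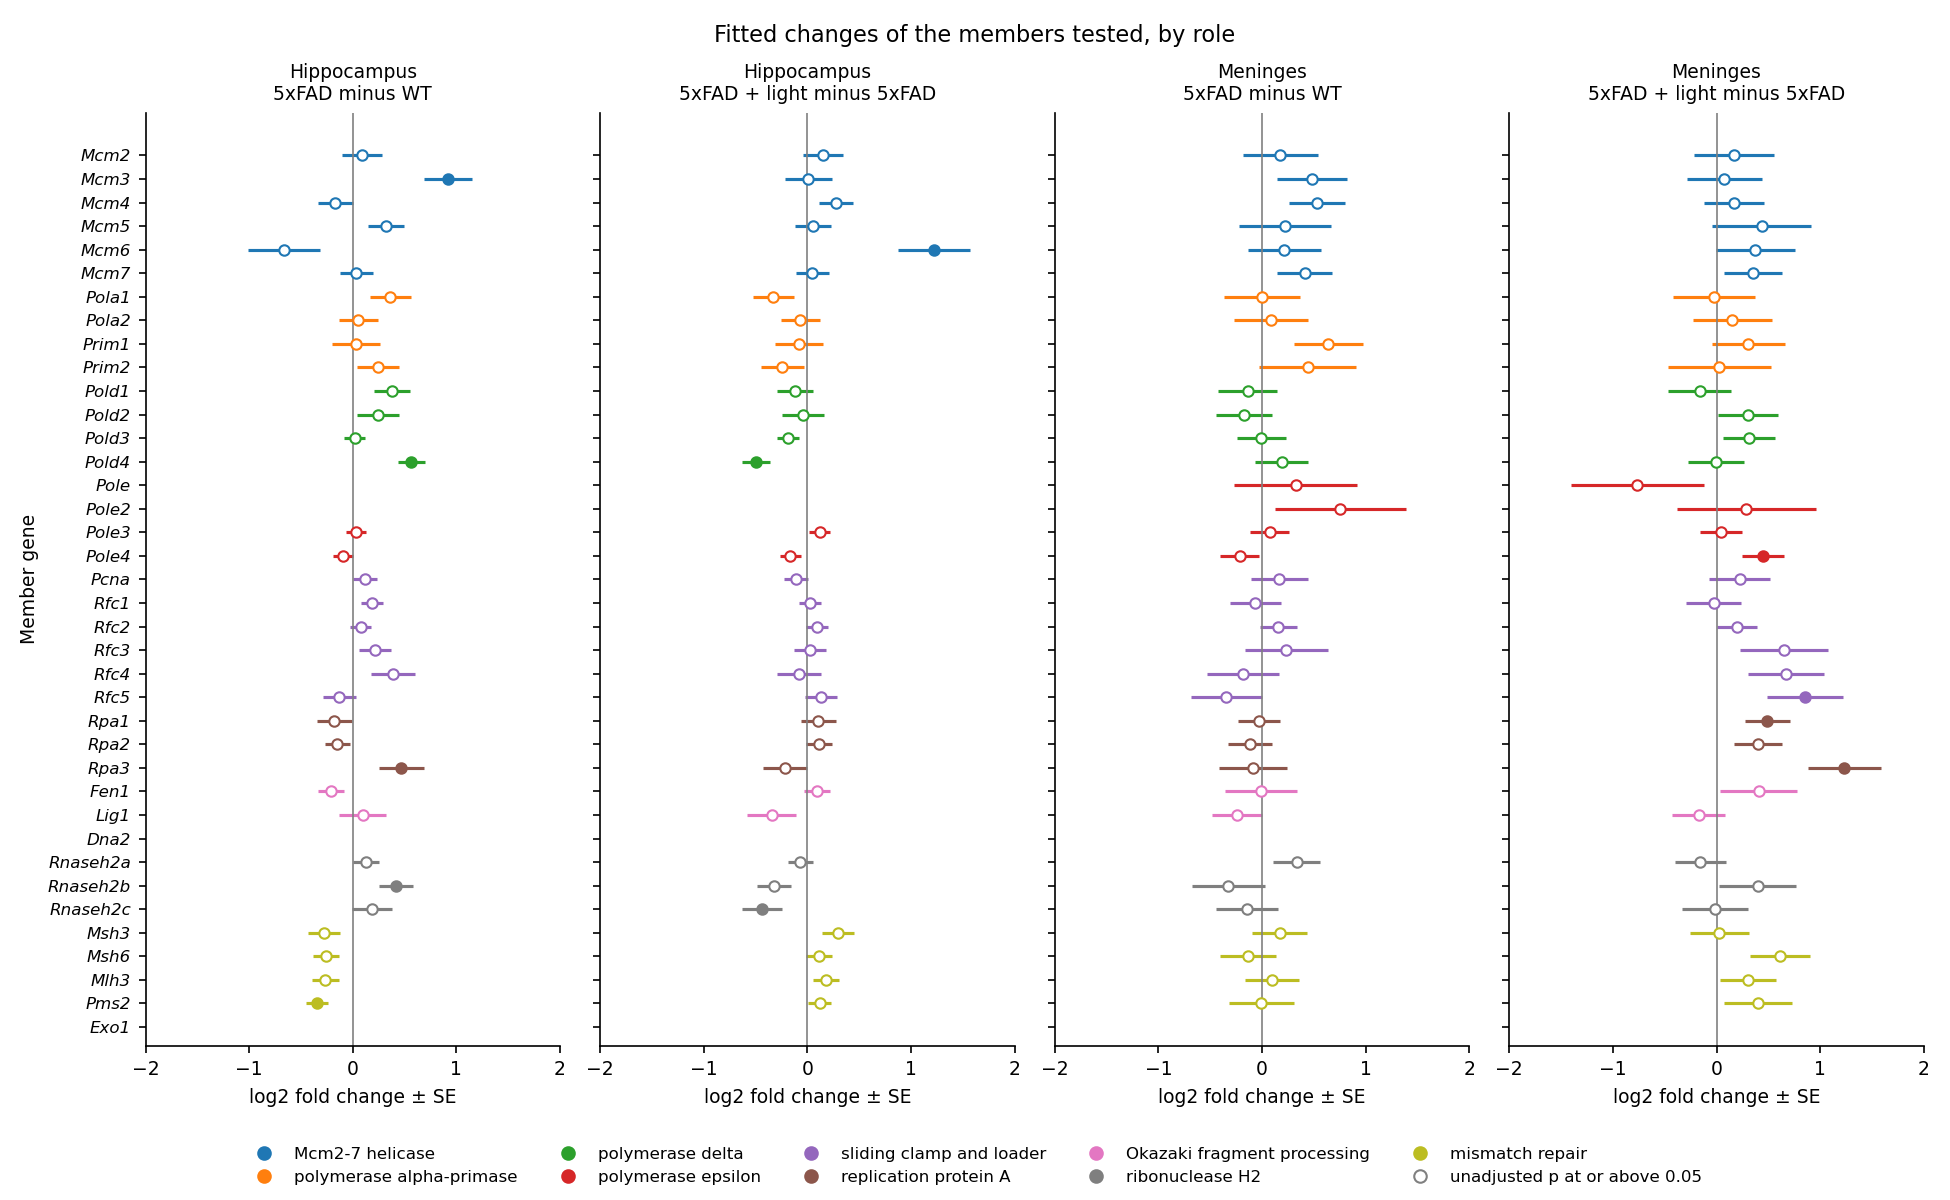
Fitted log2 differences (± SE) of the members tested, ordered by role, in the HPC and meninges, for untreated 5xFAD minus WT and light-treated minus untreated 5xFAD. Filled points have an unadjusted p below 0.05, and in the meninges 28 of 36 members lay above 0 for light against 19 of 36 for 5xFAD.

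In the meninges, 36 members were tested (all but Dna2 and Exo1). Between untreated 5xFAD and WT, 0 members were called by edgeR or DESeq2, none had an unadjusted p below 0.05 in edgeR (2.12% of all 14318 genes were higher and 1.89% lower by that rule), and 19 of 36 had a fitted difference above 0, against 49.6% of all genes. No gene of the whole transcriptome was called here (0% in either direction). All 6 Mcm2-7 genes had fitted differences above 0, with a median of 0.32 on the log2 scale. The smallest p was that of Mcm4, a helicase subunit, with 5.34, 5.04, 4.49 and 2.89 FPKM in WT, 5.34, 5.56 and 8.09 in untreated and 5.09, 9.3 and 7.24 in light-treated 5xFAD (5xFAD minus WT 0.53, unadjusted p = 0.0685, edgeR).

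Between light-treated and untreated 5xFAD meninges, edgeR called 0 of 36 members (0% of all genes called higher, 0.014% lower), as did DESeq2. At an unadjusted p below 0.05, 4 members were higher (5.01% of all genes) and 0 were lower (7.71%). Fitted differences were above 0 for 28 of 36 members with a median log2 difference of 0.30, where 53% of all genes lay above 0 with a median of 0.04. Every role but ribonuclease H2 had a median above 0, and replication protein A had the highest (0.49).

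Rpa3 (ENSMUSG00000012483, chr6:8255936-8259173) had the smallest p among the members. It had 13.61, 21.47, 8.61 and 13.38 FPKM in WT meninges (14.3 ± 5.33, SD, n = 4), 12.74, 12.94 and 14.99 in untreated 5xFAD (13.6 ± 1.25, n = 3) and 35.69, 25.95 and 33.28 in light-treated 5xFAD (31.6 ± 5.07, n = 3). All 3 light-treated libraries lay above all 7 others. The log2 difference from untreated 5xFAD was 1.23 (SE 0.352, unadjusted p = 0.00375 and adjusted p = 0.286, edgeR) and from WT 1.15 (SE 0.322, adjusted p = 0.147, edgeR). Neither passed the adjusted threshold. When single libraries were left out, the first difference ran from 1.09 to 1.41.

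The large subunit Rpa1 had 18.9, 14.51, 16.36 and 12.79 FPKM in WT, 17.31, 14.62 and 13.97 in untreated 5xFAD (15.3 ± 1.77, SD, n = 3) and 18.22, 25.93 and 19.79 in light-treated 5xFAD (21.3 ± 4.07, n = 3), a log2 difference between the 5xFAD groups of 0.49 (SE 0.216, edgeR adjusted p = 0.379). Pole4 had 29.7, 32.53, 31.83 and 25.98 FPKM in WT, 29.23, 27.04 and 21.51 in untreated 5xFAD (25.9 ± 3.98, n = 3) and 34.06, 37.74 and 34.27 in light-treated 5xFAD (35.4 ± 2.07, n = 3), a log2 difference of 0.45 (SE 0.199, edgeR adjusted p = 0.383). For both genes the 5xFAD groups did not overlap. Rfc5, a subunit of the clamp loader, had 5.38, 4.53, 3.55 and 2.9 FPKM in WT, 1.8, 2.62 and 3.91 in untreated and 5.85, 6.2 and 3.44 in light-treated 5xFAD, with overlapping groups (log2 difference 0.86, SE 0.364, edgeR adjusted p = 0.362).

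In all, 8 members had light-treated libraries above all untreated 5xFAD libraries (Prim1, Pole4, Pcna, Rfc3, Rfc4, Rpa1, Rpa2 and Rpa3), against 10.1% of all genes, and 1 had them below (Rfc1, 10.7%). Prim1, the catalytic subunit of primase, had 3.3, 4.59, 3.17 and 1.89 FPKM in WT (3.24 ± 1.1, SD, n = 4), 4.92, 5.42 and 4.82 in untreated 5xFAD (5.05 ± 0.321, n = 3) and 5.98, 6.94 and 5.91 in light-treated 5xFAD (6.28 ± 0.576, n = 3), so that no pair of the 3 groups overlapped (untreated 5xFAD lay above WT in this way for 2.19% of all genes). Pcna had 53.69, 43.56, 22.24 and 30.46 FPKM in WT, 38.71, 44 and 43.79 in untreated and 45.27, 52.18 and 50.3 in light-treated 5xFAD. Rfc3 (chr5:151642756-151651242) had 7.48, 7.63, 8.19 and 1.84 FPKM in WT, 5.82, 7.03 and 9.15 in untreated and 9.93, 11.99 and 12.75 in light-treated 5xFAD, and all light-treated libraries lay above the other groups.

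**Figure D3:**
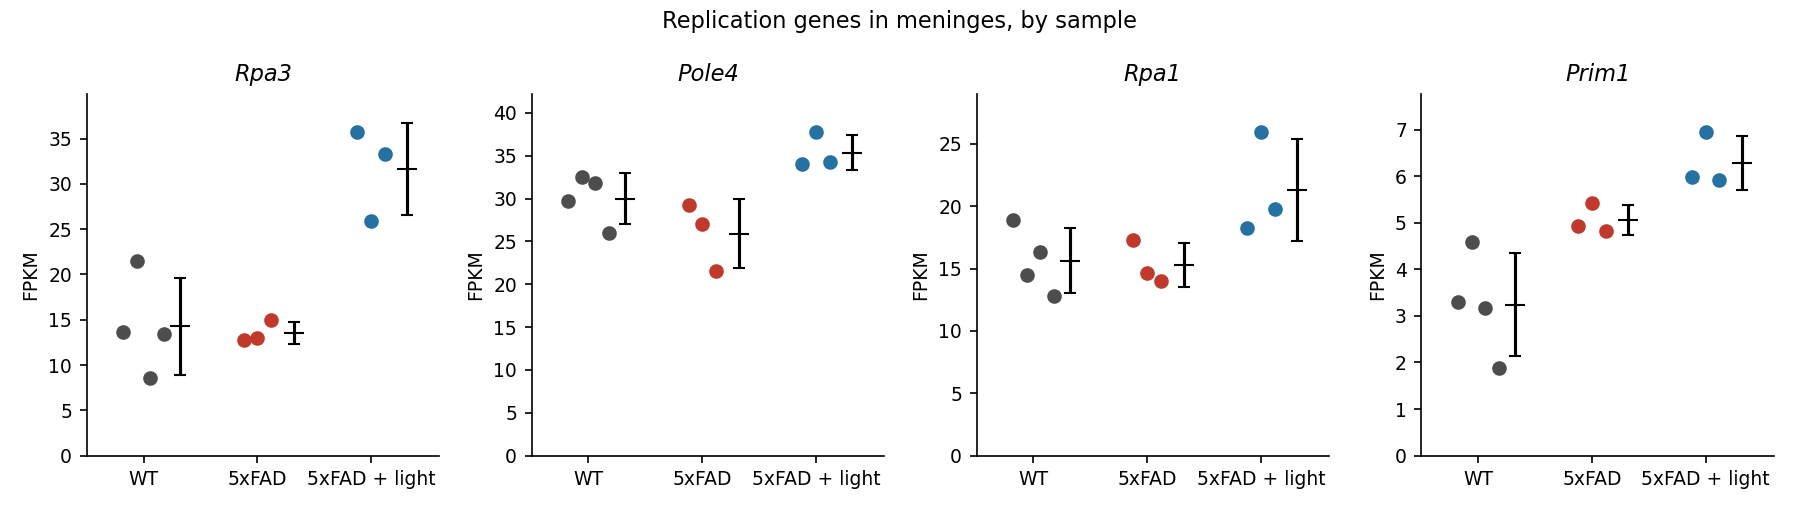
FPKM of Rpa3, Pole4, Rpa1 and Prim1 in each of the 10 meningeal libraries, with points for mice and bars for the mean ± SD (n = 4 WT, 3 untreated and 3 light-treated 5xFAD). The 3 light-treated libraries of Rpa3, at 25.95 to 35.69 FPKM, lay above the other 7, which reached 21.47.

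Light-treated 5xFAD and WT meninges gave 0 called members by edgeR (0% of all genes higher, 0.014% lower) or DESeq2, and 6 members with an unadjusted p below 0.05, all higher (8.13% of all genes). These were Rpa3, Mcm7, Prim1, Mcm4, Rpa1 and Rfc3. Mcm7 had 11.56, 7.5, 6.93 and 7.37 FPKM in WT, 6.05, 9.31 and 12.58 in untreated and 13.49, 14.68 and 12.27 in light-treated 5xFAD (light-treated minus WT 0.76, SE 0.262, edgeR adjusted p = 0.188). Light-treated libraries lay above all WT libraries for Mcm7 but overlapped untreated 5xFAD. This was so against WT for 8 of 36 members (Mcm7, Prim1, Pole4, Rfc2, Rfc3, Rfc4, Rpa3 and Msh6), where 6.99% of all genes were higher in this way, and for 0 members in the lower direction (5.34%). Prim1 was 0.95 above WT after light (SE 0.331, edgeR adjusted p = 0.192) and 0.64 above WT in untreated 5xFAD (edgeR adjusted p = 0.987). Fitted differences were above 0 for 30 of 36 members in light-treated 5xFAD against WT, with a median of 0.37, where 51% of all genes lay above 0 with a median of 0.01. The 6 B cell progenitor markers also summed higher in light-treated (21.5 to 30.5 FPKM) than in WT meninges (12.6 to 19.1), with 13.9 to 22.1 in untreated 5xFAD, and of the 4 that were tested all 4 lay above 0 against WT and 0 were called. Ebf1 had the highest median of the 6 markers in the meninges, at 11.4 FPKM. In mLECs Ebf1 had a median of 27.6 FPKM, while the 5 other markers were at 0 in all libraries. No marker of this list was at 0 in all meningeal libraries, and the part of such cells in the member values was not tested.

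Mcm2 and Lig1 did not separate between the meningeal groups. Mcm2 had 4.41, 3.76, 1.77 and 2.36 FPKM in WT, 2.31, 3.93 and 4.2 in untreated and 3.01, 5.53 and 3.41 in light-treated 5xFAD. Lig1 had 14.2, 11.15, 11.56 and 16.45 FPKM in WT, 15.73, 9.64 and 9.09 in untreated and 11.15, 10.94 and 9.59 in light-treated 5xFAD. All of these ranges overlapped. Msh6 had 3.25, 2.77, 3.09 and 2.41 FPKM in WT, 2.56, 1.8 and 3.47 in untreated and 3.33, 4.34 and 4.31 in light-treated 5xFAD, where the light-treated range lay above WT and overlapped untreated 5xFAD. Exo1 had 0.12, 1.03, 0.75 and 0.06 FPKM in WT, 0.79, 0.28 and 0.71 in untreated and 0.09, 0.27 and 0.44 in light-treated 5xFAD.

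Of the other replication lists in the meninges, none held a called gene in the 3 comparisons within the tissue. Among 16 origin genes tested, Orc3 had the smallest p for light against untreated 5xFAD, with 13.39, 13.08, 10.7 and 6.86 FPKM in WT, 10.95, 7.76 and 10.18 in untreated and 17.82, 27.99 and 24.34 in light-treated 5xFAD, so that the light-treated libraries lay above all others (log2 difference 1.27, SE 0.276, unadjusted p = 0.000455 and adjusted p = 0.273, edgeR). Of 12 mitosis genes tested 10 were above 0 in this comparison. Mki67 had 0.31, 0.48, 1.03 and 1.07 FPKM in WT, 1.05, 1.39 and 1.23 in untreated and 2.25, 0.54 and 0.87 in light-treated 5xFAD, and Top2a, the topoisomerase of dividing cells, had 1.39, 1.07, 1.21 and 1.58, then 1.16, 1.42 and 1.37, then 3.23, 0.88 and 1.15. For both genes the highest library was light-treated replicate 1, whose granulocyte progenitor markers summed to 91.8 FPKM against 9.65 and 8 in the other light-treated libraries, and whose erythroid markers summed to 28500 against 3930 and 10200. Without that library, 27 of 36 members remained above 0 for light against untreated 5xFAD, with a median of 0.23. The part of granulocyte progenitor and erythroid cells in the Mki67 and Top2a values was not tested.

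Member levels in the meninges also moved with the total count of the library, which had a median of 12915229 in light-treated, 9383031 in untreated 5xFAD and 10720944 in WT. Across the 10 libraries, Pearson's r between log2(FPKM + 1) and log2 total count was above 0 for 27 of 36 members with a median of 0.52, where 56.2% of all genes were above 0 with a median of 0.10. Of these 36 relations 5 had a Benjamini-Hochberg adjusted permutation p below 0.05 (Rfc1, Mcm6, Prim2, Rpa2 and Rfc5). For Mcm6 r was 0.84 (permutation p = 0.0016, adjusted 0.029), Spearman's rho 0.76, r without the 2 libraries farthest from the median depth 0.69, and r within groups 0.88. Rfc1 (chr5:65261850-65335670), the large subunit of the clamp loader, ran the other way (r = -0.87, permutation p = 0.0015, adjusted 0.029, rho -0.88, without 2 libraries -0.82, within groups -0.85). Rfc1 had 7.28, 13.49, 30.03 and 26.9 FPKM in WT, 22.13, 15.41 and 16.31 in untreated and 10.87, 8.35 and 10.33 in light-treated 5xFAD, but by CPM the 5xFAD groups overlapped and the fitted difference was -0.03 (SE 0.267, unadjusted p = 0.92, edgeR). With log2 total count as a covariate in the edgeR fit, an alternative chosen after seeing the data, 23 of 36 members lay above 0 for light against untreated 5xFAD with a median of 0.16, and Rpa3 was the lone member with an unadjusted p below 0.05 (log2 difference 1.15, adjusted p = 0.53). In the same fit 31 of 36 lay above 0 for light against WT, with a median of 0.28.

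**Figure D4:**
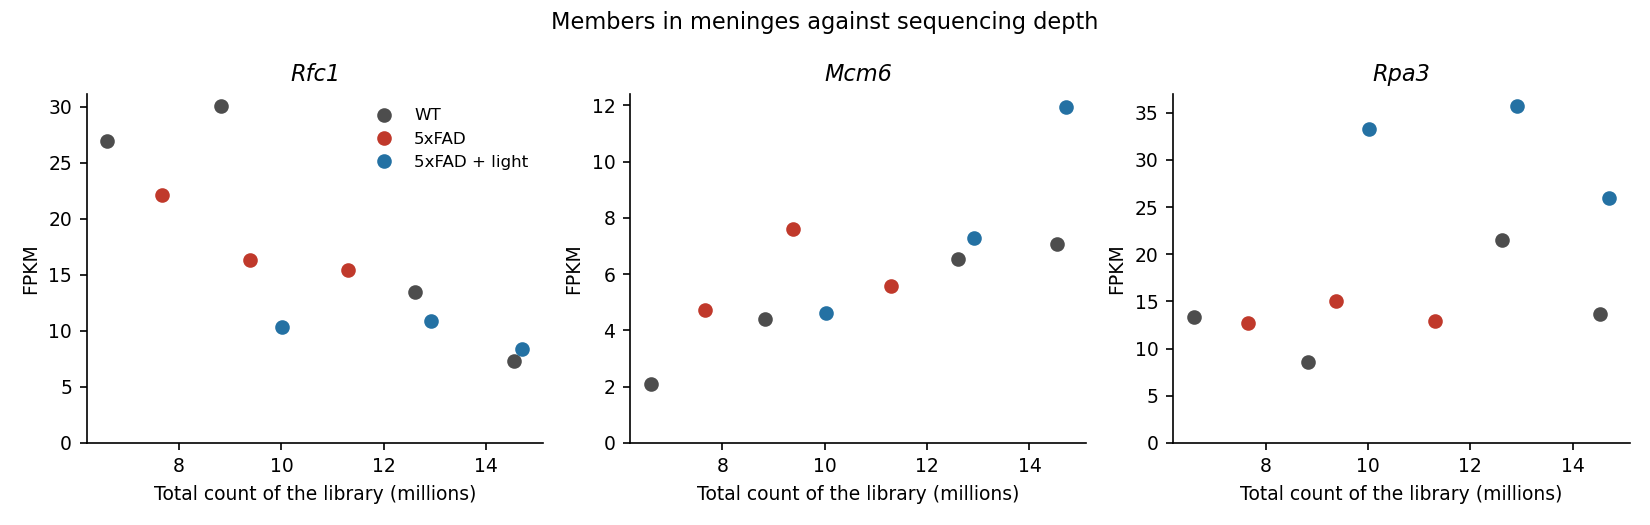
FPKM of Rfc1, Mcm6 and Rpa3 against the total estimated count of each of the 10 meningeal libraries, with the group shown by color. Mcm6 rose with depth (r = 0.84) and Rfc1 fell with it (r = -0.87), while the 3 light-treated Rpa3 values lay above the rest.

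The light effect in the meninges was compared with that in the HPC by an interaction term in 1 fit of both tissues. Of 36 members tested edgeR called 0 (0.225% of all genes higher, 0.747% lower), and 2 had an unadjusted p below 0.05, both with the larger value in the meninges (8.93% of all genes). DESeq2 called Rpa3 alone of the members, and its share of all genes is not given here. For Rpa3 the meningeal minus the hippocampal light effect was 1.42 on the log2 scale (SE 0.39, unadjusted p = 0.00158 and adjusted p = 0.0701, edgeR), and for Pole4 it was 0.59 (SE 0.173, unadjusted p = 0.00264 and adjusted p = 0.0834, edgeR). In the HPC the Rpa3 ranges of the 5xFAD groups overlapped and in the meninges they did not. Fitted interaction values were above 0 for 27 of 36 members, against 53.7% of all genes, with a median of 0.27 where all genes had 0.06.

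In mLECs the members were read patchily. The gate was first checked against defining markers. Pecam1 was at 189.3 to 397.94 FPKM, Prox1, the lymphatic master regulator, was at 0 to 5.71 and at 0 in 3 libraries, Pdpn, a gate protein, was at 0 in 4 of 10 libraries, Lyve1 was at 0 in 2 and Flt4 ran from 3.83 to 81.61. All 4 leukocyte and all 4 granulocyte progenitor markers were at 0 in all 10 libraries. The 6 lymphatic markers summed to 37.9 and 36 FPKM in WT replicates 2 and 4, against 1070 to 9570 in the others. Most of the high sums came from Ccl21a alone, with a median of 3550 and a highest value of 9355.65 FPKM. No other marker of this list exceeded 89.21 FPKM. Blood endothelial markers summed to 3430 and 1530 FPKM in these libraries and to 1010 to 2570 in the others. Dcn, 1 of 6 fibroblast markers, had a median of 206 FPKM, whereas Col1a1 and Col3a1 did not exceed 0.29 and 0.05 and Col1a2 had a median of 0.005. The 2 other fibroblast markers, Lum and Pdgfra, were at 0 in all 10 libraries. Erythroid markers summed to 6220 in untreated 5xFAD replicate 4, and 3 of 5 were at 0 in all 10 libraries. The part of these cells in the member values was not tested. Of 380 member values 160 were exactly 0, which at these depths allows up to 3 counts per library, or 0.124 to 0.211 CPM, and which covers counting error only. Pole4 and Pcna alone had at least 1 FPKM in all 10 libraries. Dna2 and Rnaseh2b were at 0 in all 10, Mlh3 and Exo1 never reached 1 FPKM, and Pola1, Prim2, Pole and Pole2 reached it in 1 library each.

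Pcna had 71.04, 53.2, 107.66 and 143.39 FPKM in WT mLECs, 101.98, 130.03 and 123.51 in untreated and 202.31, 106.75 and 16.72 in light-treated 5xFAD. Pole4 had 86.59, 23.71, 48.13 and 31.96 FPKM in WT, 39.74, 25.65 and 3.58 in untreated and 12, 18.72 and 28.66 in light-treated 5xFAD. The groups overlapped for both. The number of the 38 members with at least 1 FPKM was 10, 9, 28 and 17 in the WT libraries, 17, 18 and 15 in untreated and 17, 15 and 9 in light-treated 5xFAD, against 32 to 34 in HPC and 33 to 36 in meningeal libraries. WT replicate 3 was the highest of the 10, with 73.7% of the members and 32.8% of all genes at 1 FPKM or more, whereas untreated 5xFAD replicate 1, with 33% of all genes, had 44.7% of the members. Without WT replicate 3 the 9 other libraries had 9 to 18 members.

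In WT replicate 3 all 6 Mcm2-7 genes had at least 1 FPKM, as did every polymerase subunit on the list other than Pola1 (0.01), Prim2 (0.72) and Pole2 (0). Mcm2 had 0, 0, 14.73 and 0 FPKM in WT, 0, 0.99 and 0 in untreated and 0, 1.85 and 0 in light-treated 5xFAD. Pole, the catalytic subunit of polymerase epsilon, had 17.22 FPKM in that library and 0 in the 9 others, and Pold1, the catalytic subunit of polymerase delta, had 35.2 there, 4.02 and 0.02 in untreated 5xFAD replicates 4 and 2, 0.07 in WT replicate 4 and 0 elsewhere. Mki67 had 6.46 FPKM in WT replicate 3, 0.07 in light-treated replicate 2 and 0 in the rest, and the library had 5 of 16 mitosis genes (0 to 3 in the others), 4 of 6 replication-coupled chromatin assembly genes (0 to 1), 7 of 8 nucleotide supply genes (1 to 5), 9 of 13 base excision repair genes (1 to 6) and 9 of 20 origin genes (2 to 11) at 1 FPKM or more. Top2a was at 0.13 in it, at 3.99 in untreated 5xFAD replicate 1 and at 0 elsewhere.

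**Figure D5:**
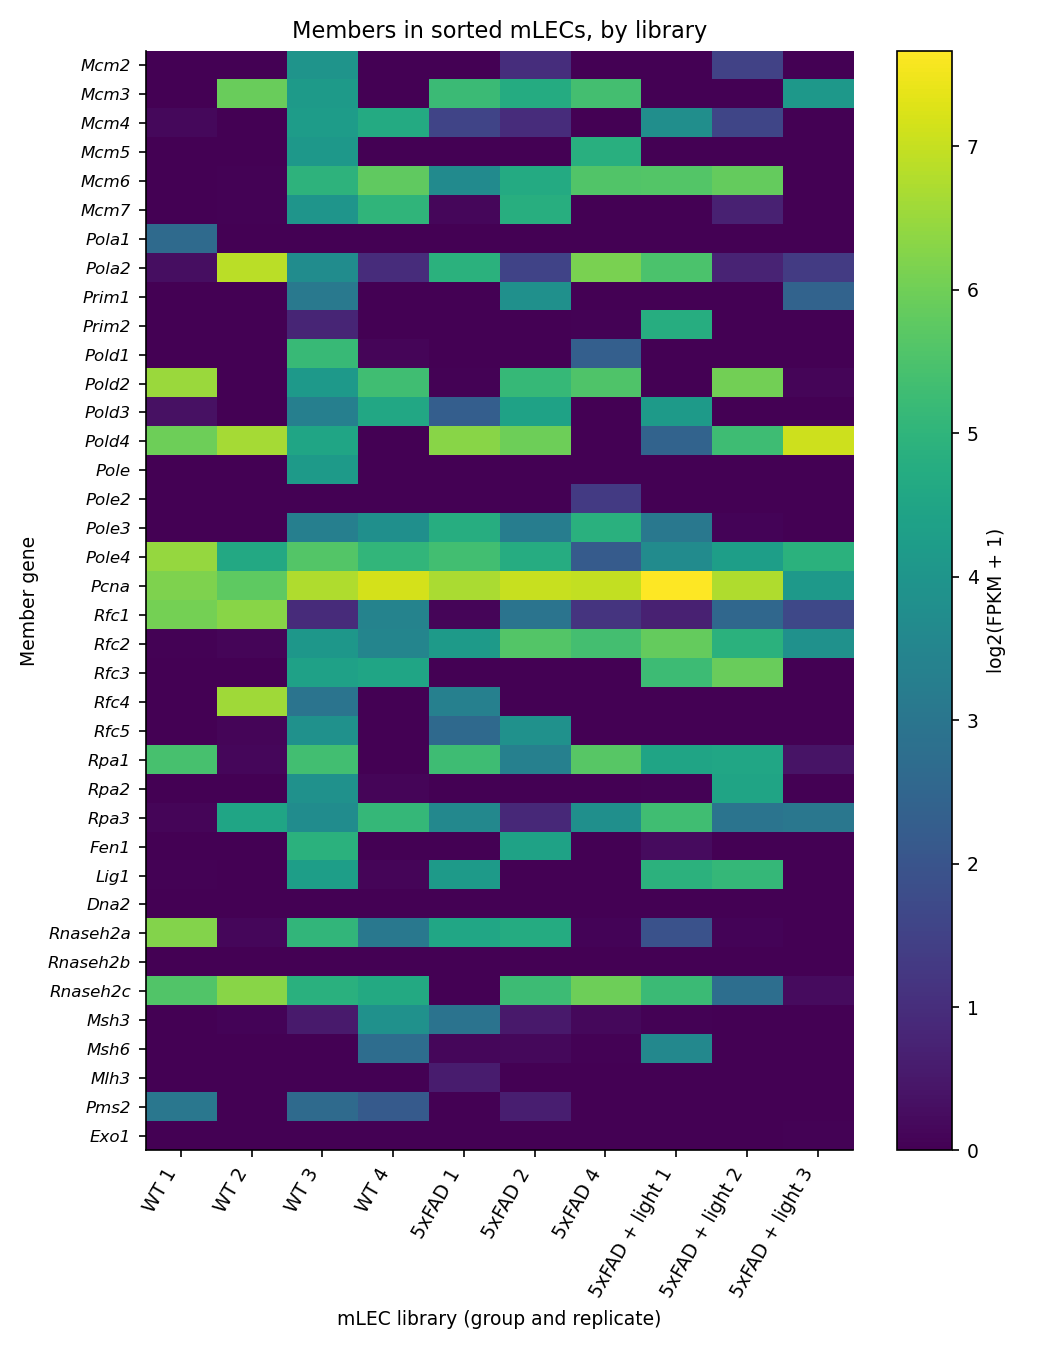
Heat map of log2(FPKM + 1) for the 38 members (rows, by role) in the 10 mLEC libraries (columns, by group). Values switch between 0 and high levels from library to library, Pcna and Pole4 are present in all 10, and WT replicate 3 has the most members, 28, at 1 FPKM or more.

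Between mLEC groups 23 members were tested and edgeR called 0 of them in each comparison. For untreated 5xFAD against WT (0% of all 8188 genes called in either direction) 0 members were higher (2%) and 1 was lower (1.81%) at an unadjusted p below 0.05. The counts were 1 higher (0.818%) and 0 lower (3.19%) for light-treated against untreated 5xFAD (0% called in either direction) and 0 higher (2.25%) and 2 lower (4.47%) for light-treated 5xFAD against WT (0% called higher, 0.0122% lower). DESeq2 called Rfc3 in the first comparison, Rfc3 and Rfc5 in the second and Rfc5 in the last. In each of these comparisons DESeq2 also called far more genes than edgeR over the transcriptome, with the counts given in the closing section. Fitted folds are not given, since whole groups stood at 0.

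Rfc3 had 0, 0, 20 and 21.65 FPKM in WT mLECs, 0, 0 and 0 in untreated and 37.62, 59.33 and 0 in light-treated 5xFAD. Untreated 5xFAD was at 0 throughout, but so were 2 WT libraries and 1 light-treated library (edgeR, untreated 5xFAD against WT unadjusted p = 0.0415 and adjusted p = 1.00; light-treated against untreated unadjusted p = 0.0303 and adjusted p = 1; DESeq2 adjusted p = 6.63e-10 and 9.87e-10). Rfc4 had 0, 93.73, 6.71 and 0 FPKM in WT, 9.14, 0 and 0 in untreated and 0, 0 and 0 in light-treated 5xFAD (light-treated against WT unadjusted p = 0.048 and adjusted p = 0.74, edgeR). Rfc5, which DESeq2 called, had 0, 0.07, 13.61 and 0, then 5.1, 13.6 and 0, then 0, 0 and 0 FPKM. Pms2 had 7.16, 0, 5.34 and 3.53 FPKM in WT, 0.01, 0.55 and 0 in untreated and 0, 0 and 0 in light-treated 5xFAD (light-treated against WT unadjusted p = 0.0286 and adjusted p = 0.74, edgeR). In each of these genes at least 1 library of the higher group was at 0, so that the ranges overlapped.

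Some members were present in all libraries of 1 group and in a part of another. Mcm3 had 0.02, 59.74, 17.26 and 0 FPKM in WT, 36.48, 25.04 and 40.63 in untreated and 0.02, 0 and 16.08 in light-treated 5xFAD, with light-treated below untreated 5xFAD in every library. Mcm3 and Pole3, a histone-fold subunit of polymerase epsilon, were the 2 members tested that were lower in this way (6.58% of all genes). Mcm6 had 0.02, 0.04, 30.25 and 54.37 FPKM in WT, 11.66, 24.97 and 46.79 in untreated and 48.44, 56.63 and 0.02 in light-treated 5xFAD. Rfc2, another clamp loader subunit, had 0.04, 0.07, 15.82 and 10.34 FPKM in WT, 17.19, 47.76 and 40.12 in untreated and 56.8, 28.85 and 13.71 in light-treated 5xFAD, with untreated 5xFAD above all WT libraries (5.01%). None of the 3 had an unadjusted p below 0.05 in edgeR. Lig1 had 0.03, 0, 18.78 and 0.07 FPKM in WT, 16.92, 0 and 0 in untreated and 29.68, 33.4 and 0 in light-treated 5xFAD, and Msh6 had 0, 0, 0 and 5.68, then 0.09, 0.13 and 0.04, then 10.99, 0 and 0. Exo1 did not exceed 0.03 FPKM in any mLEC library.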

How the data were processed

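Libraries were grouped by the submitters' labels (32 samples). The authors deposited estimated counts and FPKM per gene, made per the study's methods with fastp and RSEM. The submitters' processing notes also list Trimmomatic, HISAT2, StringTie, DESeq2 and mm10, with no role given. Sorted-cell and tissue tables were joined by gene identifier, with symbols from the sorted-cell table. FPKM use a gene length that can differ between libraries, so Pms2, Rfc1 and others were also read as CPM, counts scaled to the library total. Estimated counts were rounded, scaled by TMM and tested with edgeR 4.0.16 (R 4.3.3) on genes with at least 1 FPKM in at least 3 libraries of a fit, 1 fit per tissue over its 3 groups, all genes adjusted together. WT tissues were compared in a fit of their own, and the tissue interaction in a fit of all HPC and meningeal libraries. DESeq2 1.42.0, limma 3.58.1 on log2(FPKM + 1), other scalings, filters, fold thresholds, sample sets, a replicate block and the omission of single libraries were alternatives. The test scripts were tested on simulated data for light-treated against untreated 5xFAD. Of 200 genes changed 2-fold, edgeR recovered 155 in the HPC, 3 in the meninges and 0 in mLECs at an adjusted p below 0.05. At 4-fold it recovered 198, 162 and 0. The members and the lists were chosen with earlier results of these data known. Values in every library are given for members past an adjusted p of 0.05, for up to 5 members with the smallest unadjusted p below 0.05 in a comparison, and for Mcm2, Pcna, Lig1, Msh6 and Exo1, plus up to 3 genes of other lists with the smallest p, Mki67 and Top2a. Further members (Rfc2, Rfc3, Rfc5, Mcm3, Mcm6, Pole and Pold1 in mLECs, Rfc1 and Rfc3 in the meninges) were added after their values were seen. Correlation p-values came from 100000 permutations, two-sided. Each replicate is 1 mouse.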

Additional observations from a re-analysis of the deposited data

Results flagged for a closer look

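In 7 of the 59 groups of 4 libraries examined for the members with values in every library, 1 library stood farther from the other 3 than Dixon's ratio at the 95% level allows, where chance alone gives about 1 in 20 groups. In WT HPC, Msh6 was at 4.32 FPKM in replicate 2 and at 3.6 to 3.72 in the others. In light-treated 5xFAD HPC, Rnaseh2b was at 9.86 FPKM in replicate 3 and at 7.38 to 7.67 in the others. In WT meninges, Mcm7 was at 11.56 FPKM in replicate 1 and at 6.93 to 7.5 in the others. The 4 other cases were WT mLECs in which most libraries were at or near 0, so that the ratio was close to 1 for any single positive value and the chance rate does not apply, with Mcm2 at 14.73 and Lig1 at 18.78 FPKM in replicate 3, Msh6 at 5.68 in replicate 4 and Rfc4 at 93.73 in replicate 2. The groups of 3 libraries were not examined.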

How the results depend on the processing

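The number of members called moved by more than 1.5 times in few settings. Without the fold threshold it was 2 for untreated 5xFAD against WT in the HPC, 1 for light-treated 5xFAD against WT in the HPC and 16 for WT meninges against WT HPC, where it was 2 with a mean FPKM of at least 5. DESeq2 gave 1 for light-treated against untreated 5xFAD HPC, 1, 2 and 1 for the mLEC comparisons (5xFAD against WT, light-treated against untreated, light-treated against WT) and 1 for the tissue interaction, which was also 1 with only the groups of the contrast fitted (Rpa3, adjusted p = 0.0473, edgeR). Leaving out single libraries gave 0 to 1 in each HPC comparison (Mcm6 without 5xFAD replicate 2, Mcm3 without 5xFAD replicate 3, WT replicate 1 or light-treated replicate 1), 5 to 7 for the WT tissues and 0 elsewhere. No fitted value of a named member changed sign. The adjusted p of Mcm3 in light-treated 5xFAD against WT HPC also missed 0.05 in limma (0.0569) and without the filter (0.0536), and that in untreated 5xFAD with only those groups fitted (0.0674). The cause was not tested. Over all genes, edgeR and DESeq2 called 35 and 192 for light against untreated 5xFAD HPC, 2 and 72 for light against untreated and 2 and 373 for light against WT in the meninges, and 0 and 185, 0 and 357 and 1 and 464 in mLECs.

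No source says that equal replicate numbers mark a shared mouse, litter or batch, and they were not treated as pairs. The correlation of same-numbered samples' deviations ran from -0.28 to 0.09 in the HPC, from -0.31 to 0.24 in the meninges, from -0.03 to 0.01 in mLECs and from 0.00 to 0.17 between WT tissues, where other pairs had -0.09 to 0.07 and 5 of 8 samples correlated best with their own number, and whether those tissues shared mice is not known. With the replicate block, 5 members were called between WT tissues and 0 in every other comparison, and Mcm3 in light-treated 5xFAD against WT HPC had an adjusted p of 0.0606. The 3 or 4 mice per group, the replicate variation of 1.89 in mLECs and the shallower meningeal libraries limit what could be detected, and no absence of a difference is implied where a test missed its threshold.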
